A study of Homo sapiens with 120 samples.

Results

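The genes described here are 32 genes of sterol and fatty acid synthesis, taken by symbol from tables of 57665 genes. All 32 were among the 26998 genes with enough counts to test, and each had an estimated count above 0 in every library. They comprise 5 regulators (SREBF1, SREBF2, SCAP, INSIG1 and INSIG2), the sterol transport protein STARD4, 18 sterol enzymes and 8 fatty acid enzymes. The sterol enzymes are 7 of the mevalonate stage (ACAT2, HMGCS1, MVK, PMVK, MVD, IDI1 and FDPS) and 11 from squalene synthase on (FDFT1, SQLE, LSS, CYP51A1, TM7SF2, MSMO1, NSDHL, HSD17B7, EBP, SC5D and DHCR7). The fatty acid enzymes are ACLY, ACSS2, ACACA, FASN, ELOVL6, SCD, FADS1 and FADS2.

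Animal cells make cholesterol from acetyl-CoA through mevalonate and squalene, and they make fatty acids from the same precursor through malonyl-CoA. Both sets of enzymes are transcribed under SREBP transcription factors, which are encoded by SREBF1 and SREBF2 and begin as membrane proteins of the endoplasmic reticulum. When sterols are scarce, SCAP escorts the SREBP precursor to the Golgi, where proteases release its active part. When sterols are plentiful, the INSIG proteins hold SCAP and its cargo back.

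The cells were U2OS, a human osteosarcoma line. Dmr-PERK cells stably carried the eIF2α kinase domain of mouse PERK joined to a DmrB domain, so that the ligand AP20187, the dimerizer, pairs the fusion protein and switches on the integrated stress response without another stressor. Parental cells, labelled WT, lacked the construct. In each line, wells received dimerizer (given as 0.2 nM in the series text), thapsigargin (100 nM, an inhibitor of the calcium pump of the endoplasmic reticulum) or sodium arsenite (0.05 mM, an oxidative stressor) for 2, 4, 8, 16 or 24 h, or were left untreated for 0, 4, 8, 16 or 24 h. The series text says that the doses were chosen to give comparable eIF2α phosphorylation. Each of the 40 groups held 3 wells, which makes 120 libraries. The labels leave unstated whether replicate wells were independent cultures, and the p-values therefore reflect only the spread between wells, which may be technical. In bulk RNA, fewer cells of a type and less RNA per cell cannot be told apart.

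Libraries summed to between 1.29e+07 and 5.65e+07 estimated counts. The lowest estimated count of any of the 32 genes in any library was 42.0, for MVK, and the highest was 84012, for HMGCS1. EIF2AK3, the gene of PERK, which shares sequence with the construct, stood at 964 ± 43.3 CPM in untreated Dmr-PERK wells and 29.7 ± 6.03 CPM in untreated Parental wells at 4 to 24 h (SD, n = 12 each). CPM are counts scaled to the library total after adjusting that total by its TMM factor. Of 9 osteoblast and mesenchyme markers 6 had a median of at least 1 TPM, and SP7, COL1A2 and IBSP did not. The summed level of those 9 markers in Dmr-PERK cells was 2613 to 4903 CPM with dimerizer, 1463 to 4492 CPM with thapsigargin, 3429 to 5210.5 CPM with arsenite and 4531 to 5439.8 CPM untreated, and in Parental cells it was 7124 to 8019 CPM with dimerizer, 2980.1 to 5664 CPM with thapsigargin, 4464 to 6792 CPM with arsenite and 7137 to 7846 CPM untreated. Its part in the results was not tested. A median of 1 TPM was reached by 0 of 5 adipocyte markers, 1 of 5 liver markers (SERPINA1), 1 of 4 blood markers (CD68) and 3 of 4 epithelial markers (EPCAM, CDH1 and KRT18). Replicate 3 of Parental cells with arsenite at 24 h stood apart from the other libraries, with a best correlation of 0.987 with the other wells of its group, against at least 0.997 for every other library, and results whose call it changes, or whose size it moves by over 1.5 times, are given with and without it.

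RefSeq windows around the transcription start (250 bases before to 50 after it, GRCh38.p14) were at hand for 28 of the 32 genes, which had 39 windows. FASN, FDFT1, SQLE and ACAT2 had none. The motifs searched, each on both strands, were TCACNCCAC, the sterol regulatory element that SREBPs bind, ATCACGTGA, a palindromic E-box that SREBPs also bind, CCAAT, the box of NF-Y, a usual partner of SREBPs, GGGCGG, the GC box of SP1, and TGATGNAA, an element of the C/EBP-ATF type. CCAAT was in 25 of the 39 windows (64.1%) and in at least 1 window of 21 of the 28 genes, against 34.6% of all 35116 windows. GGGCGG was in 35 of the 39 (89.7%), against 45% of all windows. The windows of these genes held from 45.3% to 82.3% G or C, and the shares were not adjusted for base composition. TCACNCCAC was found in the SREBF2 window alone (1.13% of all windows hold it), ATCACGTGA in the INSIG1 window alone (0.268% of all), and TGATGNAA in 0 of the 39 (3.62% of all). Windows of 1 gene can overlap, as the 2 of HMGCS1 do, and NSDHL holds CCAAT matches that overlap each other. A match is a run of letters and not a shown binding site, and sites that depart from these letters were not searched. SREBF2 and INSIG1 are printed for these matches, STARD4 and HMGCS1 because they rose with thapsigargin and fell with dimerizer, and MVK and PMVK because these consecutive enzymes moved in opposite directions with arsenite. Capitals mark matches to TCACNCCAC, ATCACGTGA or CCAAT on either strand, so that ATTGG is CCAAT read from the other strand. The PMVK window holds none of the 3.
SREBF2, chr22:41832855-41833154, plus strand: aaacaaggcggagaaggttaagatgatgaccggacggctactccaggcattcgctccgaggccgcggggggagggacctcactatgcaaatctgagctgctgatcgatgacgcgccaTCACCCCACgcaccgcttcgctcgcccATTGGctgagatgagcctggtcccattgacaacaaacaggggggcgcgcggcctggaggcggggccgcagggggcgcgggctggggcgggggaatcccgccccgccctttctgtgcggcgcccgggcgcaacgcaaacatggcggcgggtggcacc
INSIG1, chr7:155297628-155297927, plus strand: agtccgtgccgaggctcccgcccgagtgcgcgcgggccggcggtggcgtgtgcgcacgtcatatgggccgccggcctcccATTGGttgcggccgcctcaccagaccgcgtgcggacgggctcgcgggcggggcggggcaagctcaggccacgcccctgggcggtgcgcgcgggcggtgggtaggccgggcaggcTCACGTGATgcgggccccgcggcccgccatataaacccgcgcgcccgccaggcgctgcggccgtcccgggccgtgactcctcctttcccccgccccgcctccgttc
STARD4, chr5:111512486-111512785, minus strand: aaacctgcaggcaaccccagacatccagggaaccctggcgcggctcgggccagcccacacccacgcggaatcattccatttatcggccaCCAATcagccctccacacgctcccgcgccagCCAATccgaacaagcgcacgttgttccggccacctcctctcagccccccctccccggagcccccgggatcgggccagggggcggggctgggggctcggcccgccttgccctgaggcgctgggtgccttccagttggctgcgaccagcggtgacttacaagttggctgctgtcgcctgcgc
HMGCS1, chr5:43313363-43313662, minus strand: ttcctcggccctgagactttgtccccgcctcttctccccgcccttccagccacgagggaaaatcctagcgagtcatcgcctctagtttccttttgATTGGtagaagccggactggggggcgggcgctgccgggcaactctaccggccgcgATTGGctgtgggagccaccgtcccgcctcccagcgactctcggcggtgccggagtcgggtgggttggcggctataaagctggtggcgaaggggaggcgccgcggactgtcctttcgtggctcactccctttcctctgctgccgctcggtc
MVK, chr12:109573544-109573843, plus strand: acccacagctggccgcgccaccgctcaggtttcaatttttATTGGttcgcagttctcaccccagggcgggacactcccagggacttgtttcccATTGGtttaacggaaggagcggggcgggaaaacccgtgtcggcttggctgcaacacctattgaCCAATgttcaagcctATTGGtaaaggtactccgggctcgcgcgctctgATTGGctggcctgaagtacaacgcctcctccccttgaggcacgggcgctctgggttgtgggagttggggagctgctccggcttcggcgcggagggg
PMVK, chr1:154936670-154936969, minus strand: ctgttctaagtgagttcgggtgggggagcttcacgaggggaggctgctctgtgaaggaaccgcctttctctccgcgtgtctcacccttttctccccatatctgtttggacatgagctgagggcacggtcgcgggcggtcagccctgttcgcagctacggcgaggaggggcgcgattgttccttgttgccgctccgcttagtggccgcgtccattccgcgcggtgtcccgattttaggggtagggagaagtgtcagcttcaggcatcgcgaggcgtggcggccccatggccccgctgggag

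In untreated cells the genes spanned a wide range of levels, which are given in TPM (a unit scaled for transcript length and library total) as the median of 15 wells per line with the lowest and highest well. FASN, the fatty acid synthase, had the highest median, 174 TPM (148 to 188) in Dmr-PERK cells and 281 TPM (217 to 349) in Parental cells. FDPS, which makes farnesyl diphosphate, had a median of 162 TPM (149.8 to 194) in Dmr-PERK cells and 183 TPM (169.9 to 202) in Parental cells, so that the ranges of FASN and FDPS overlapped in Dmr-PERK cells and not in Parental cells. The lowest were TM7SF2, a sterol reductase, at 11.2 TPM in Dmr-PERK cells and 13.1 TPM in Parental cells, and INSIG1 at 12.3 TPM in Dmr-PERK cells and 11.9 TPM in Parental cells. Ranges of INSIG1 and TM7SF2 overlapped in both lines (in Parental cells 8.38 to 19.7 and 10.8 to 14.9 TPM), so their order is within the spread over wells.

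The untreated lines differed at most of these genes, as they did across the transcriptome. Of the 32 genes 11 were higher and 17 lower in untreated Dmr-PERK than in untreated Parental cells, where 62.1% of all tested genes were called, 30.2% as higher (edgeR quasi-likelihood test, adjusted p under 0.05). MVD, the mevalonate diphosphate decarboxylase, had the lowest log2 fold change (-0.89 ± 0.03 SE, adjusted p = 2.96e-52), with medians of 42.1 TPM in Dmr-PERK and 75.6 TPM in Parental cells. ELOVL6, which lengthens palmitate, had the highest (0.84 ± 0.02, adjusted p = 5.80e-55), with medians of 39.9 TPM in Dmr-PERK and 22.3 TPM in Parental cells.

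Untreated wells also drifted over the day. Of the 32 genes 30 changed with time in untreated Dmr-PERK wells and 31 in untreated Parental wells (edgeR F-test), against 53.4% and 53.3% of all tested genes. In Dmr-PERK cells 16 genes were higher and 6 lower at 24 h than at 0 h (30.8% of all genes called), and in Parental cells 3 were higher and 16 lower (32.4% called). STARD4 fell by 0.52 on the log2 scale in Dmr-PERK wells and by 1.34 in Parental wells over that time, and HMGCS1 fell by 0.68 in Dmr-PERK wells and by 1.21 in Parental wells. At 4 h against 0 h, 2 genes were higher and 16 lower in each line, where 17.5% of all genes were called in the Dmr-PERK line and 19.0% in the Parental line (8.85% lower in each). Every treatment is therefore set against untreated wells of the same time, except at 2 h, where no untreated wells were collected and untreated wells at 0 h are used.

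Dimerizer lowered most of the 32 genes in Dmr-PERK cells. Over 4 to 24 h (12 treated and 12 untreated wells), 28 of the 32 fell and 3 rose, and PMVK was not called, in a comparison in which 55.3% of all tested genes were called and 27.9% fell. The median log2 fold change was -0.42 for the 32 genes and -0.03 for all genes. Of the 18 sterol enzymes 16 fell, with a median of -0.53, and 8 of the 8 fatty acid enzymes fell with a median of -0.30. The number of lower genes grew with time: 13 were lower at 4 h (14.5% of all tested genes lower), 24 at 8 h (17.1%), 28 at 16 h (20.9%) and 29 at 24 h (23.0%), with medians of -0.08, -0.38, -0.55 and -0.75. At 2 h the balance depended on the untreated wells used: 6 genes were lower and 3 higher against untreated wells at 0 h (17.5% of all genes called, 9.10% lower and 8.39% higher, median 0.01), and 5 were lower and 18 higher against untreated wells at 4 h (33.3% called, 16.4% higher). At 24 h the 3 dimerizer wells lay below the 3 untreated wells for 29 genes, above them for 1, and overlapped for 2, and of all tested genes 54.6% had wells that did not overlap.

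**Figure D1:**
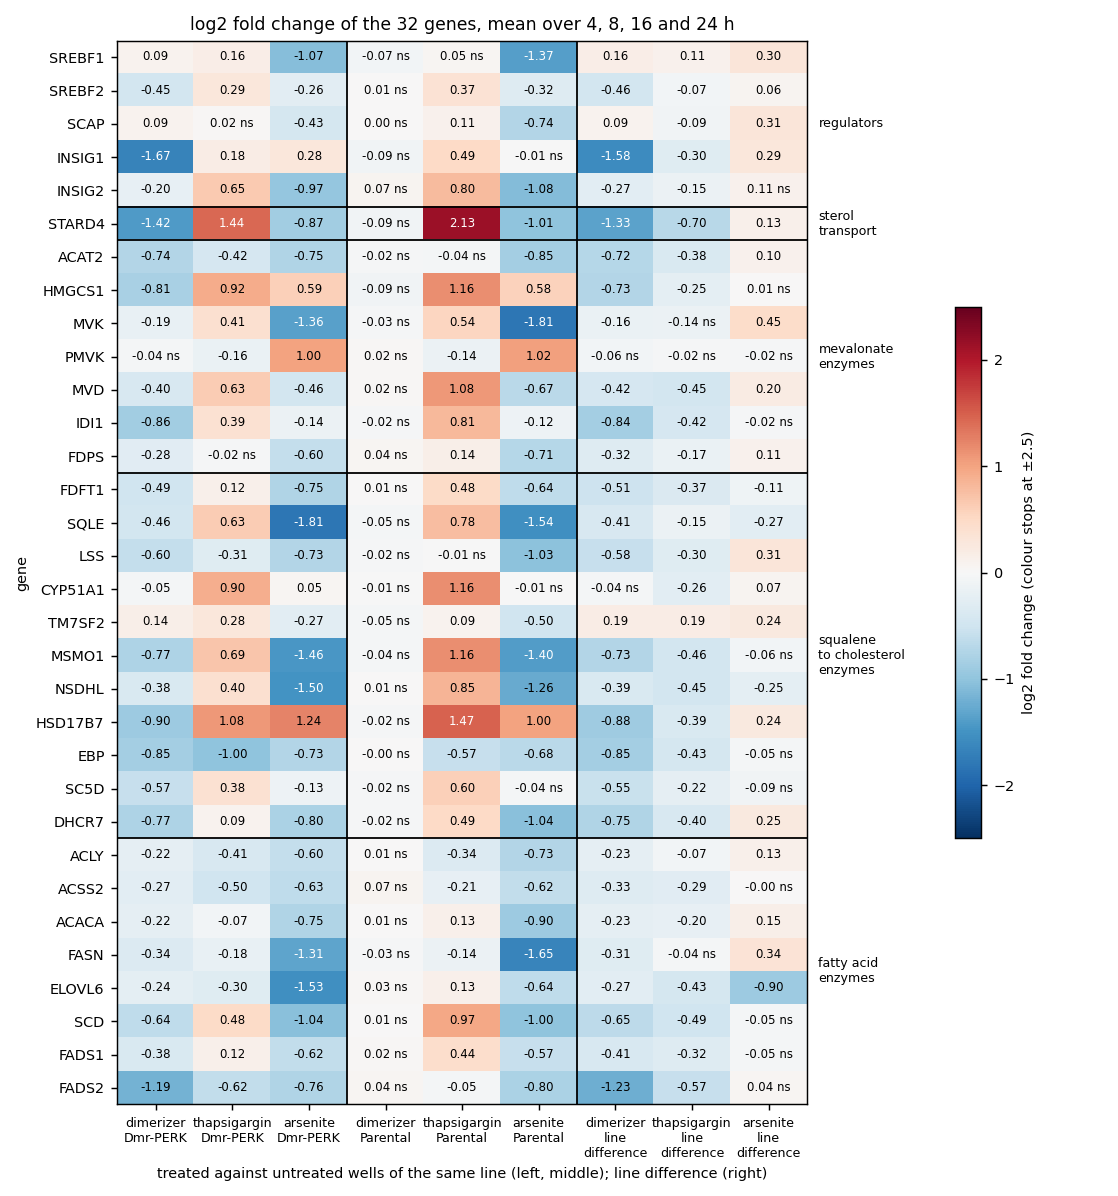
Log2 fold changes of the 32 genes (rows, ordered by role) averaged over 4 to 24 h (columns), for each treatment in each line and for the line difference, with the value in each cell, blue for lower, red for higher and ns where edgeR did not call the gene. Dimerizer in Dmr-PERK cells lowered 28 of 32 genes, thapsigargin raised 20 and lowered 10, arsenite lowered 27, and dimerizer in Parental cells called none. Among all tested genes in Dmr-PERK cells, 27.9% fell with dimerizer, 30.8% rose and 32.2% fell with thapsigargin, and 39.2% fell with arsenite. In Parental cells 0.515% of all tested genes were called with dimerizer.

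Among the regulators INSIG1, itself an SREBP target whose protein retains SCAP, changed most. At 24 h it stood at 3.59, 5.16 and 4.84 CPM in dimerizer wells, against 22.2, 20.1 and 20.7 CPM in untreated wells. All dimerizer wells were far below all untreated wells, and the log2 fold change at 24 h was -2.20 ± 0.09 (adjusted p = 2.10e-39) and -1.67 ± 0.05 over 4 to 24 h (adjusted p = 7.72e-54). SREBF2, the gene of the SREBP most tied to sterol enzymes, had 136, 142 and 137 CPM in dimerizer wells at 24 h, against 289, 301 and 282 CPM in untreated wells. SREBF2 was not called at 2, 4 or 8 h (-0.01 at 8 h), but at 2 h it was called higher against untreated wells at 4 h (0.11). It fell by 0.69 at 16 h and by 1.07 at 24 h on the log2 scale. Its fall thus came later than that of INSIG1, which fell by 0.76 at 4 h and by 1.88 at 8 h.

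The 3 genes that rose were SREBF1, which encodes the SREBP most tied to fatty acid enzymes, SCAP and TM7SF2, and their changes were small. SREBF1 had 119, 114 and 116 CPM with dimerizer at 8 h, against 93.2, 97.7 and 99.1 CPM untreated. All dimerizer wells were higher at that time, but at 24 h the gene was lower (-0.24 ± 0.06, adjusted p = 3.20e-04), and its value over 4 to 24 h was 0.09 ± 0.03 (adjusted p = 0.00491). SCAP had 117, 116 and 116 CPM with dimerizer at 24 h, against 109, 106 and 103 CPM untreated, and its value over 4 to 24 h was 0.09 ± 0.02 (adjusted p = 1.82e-04). TM7SF2 had 9.70, 9.88 and 10.8 CPM with dimerizer at 8 h, against 8.04, 9.36 and 8.29 CPM untreated, and its value over 4 to 24 h was 0.14 ± 0.04 (adjusted p = 0.00392). The wells of SCAP at 24 h and of TM7SF2 at 8 h did not overlap. Of these 3 calls 0 remained with limma on log2 TPM, and 1 gene was called higher when replicate 1 was left out of every group.

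STARD4, which carries cholesterol between membranes, had 11.9, 14.0 and 14.0 CPM with dimerizer at 24 h, against 50.7, 48.6 and 49.1 CPM untreated. The groups were far apart, and the gene fell by 1.89 ± 0.07 at that time (adjusted p = 1.65e-43) and by 1.42 ± 0.03 over 4 to 24 h (adjusted p = 2.88e-60).

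In the mevalonate stage 6 of 7 enzymes fell. IDI1, the isomerase that supplies dimethylallyl diphosphate, had 11.9, 11.2 and 9.90 CPM with dimerizer at 24 h, against 23.5, 22.4 and 23.8 CPM untreated. Its wells were well separated (-1.07 ± 0.07, adjusted p = 8.03e-28), and its value over 4 to 24 h was -0.86 ± 0.03 (adjusted p = 2.50e-43). HMGCS1, which makes HMG-CoA, had 76.2, 79.2 and 79.0 CPM with dimerizer at 24 h, against 157, 147 and 157 CPM untreated. It was higher at 2 h (0.30, and 0.48 against untreated wells at 4 h), not called at 4 h (-0.04) and lower from 8 h on (-1.13, -1.11 and -0.98 at 8, 16 and 24 h). PMVK, the kinase after MVK, was the exception to the stage, with a log2 fold change of -0.04 (adjusted p = 0.522).

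From squalene synthase on, 10 of 11 enzymes fell. HSD17B7, a 3-keto sterol reductase, had 7.13, 8.12 and 7.20 CPM with dimerizer at 24 h, against 19.1, 18.9 and 19.7 CPM untreated, with no overlap (-1.35 ± 0.09, adjusted p = 5.14e-26). Its copy HSD17B7P2 held up to 28.1 TPM and up to 43.4% of the TPM of HSD17B7, so reads may be divided between them and values of HSD17B7 are uncertain. EBP, the sterol isomerase, had 17.6, 20.6 and 18.3 CPM with dimerizer at 16 h, against 43.6, 44.0 and 43.3 CPM untreated. Its dimerizer wells were all lower, and its value over 4 to 24 h was -0.85 ± 0.04 (adjusted p = 3.90e-38). MSMO1 and DHCR7, a demethylating oxidase and the last reductase of the pathway, both had -0.77. CYP51A1, the lanosterol demethylase, fell slightly (-0.05, adjusted p = 0.0101), and TM7SF2 was higher, as given above.

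Among the fatty acid enzymes FADS2, the delta-6 desaturase, fell most. It had 45.4, 46.5 and 47.8 CPM with dimerizer at 24 h, against 217, 241 and 234 CPM untreated, and its log2 fold changes at 2, 4, 8, 16 and 24 h were 0.06 (not called, but 0.17 and called against untreated wells at 4 h), -0.22, -0.57, -1.68 and -2.31. The groups did not overlap at 24 h (-2.31 ± 0.04, adjusted p = 2.02e-69). SCD, the stearoyl-CoA desaturase, had 191, 189.6 and 190.2 CPM with dimerizer at 24 h, against 348, 369.6 and 369.7 CPM untreated, and was lower by 0.93 ± 0.04 on the log2 scale (adjusted p = 9.41e-43). The enzymes that supply and extend palmitate changed less: ACLY, ACSS2, ACACA, FASN and ELOVL6 had values from -0.34 (FASN) to -0.22 (ACLY and ACACA). For ELOVL6 the direction depended on the unit, -0.24 on counts and 0.13 on log2 TPM, where it was not called. The dimerizer effect changed between 4 and 24 h for 29 of the 32 genes (42.1% of all tested genes, edgeR F-test), PMVK, SCAP and TM7SF2 being the others.

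In Parental cells, dimerizer changed none of the 32 genes by edgeR over 4 to 24 h, in a comparison in which 0.515% of all tested genes were called, 0.237% as lower. At an unadjusted p under 0.05 there were 7 of 32 by edgeR (8.63% of all tested genes) and 7 by DESeq2, of which DESeq2 called 1 lower after adjustment. Across all genes DESeq2 called 201 higher and 81 lower. By edgeR 1 was called lower with no filter (177 of all genes lower), 2 when every replicate 3 was left out (47) and 2 when only the library that stood apart was (113). Log2 fold changes by edgeR with all libraries lay between -0.09 and 0.07. FADS2 had 256, 259 and 266 CPM with dimerizer at 24 h, against 263, 262 and 254 CPM untreated. INSIG1 had 15.8, 16.9 and 16.9 CPM with dimerizer at 16 h, against 16.5, 15.9 and 16.6 CPM untreated. The wells of FADS2 and of INSIG1 overlapped at these times. At 4 h, however, 1 gene was higher and 7 were lower in Parental cells (7.17% of all genes called): INSIG2 had 0.28, HMGCS1 -0.38, STARD4 -0.32, INSIG1 -0.25, SREBF1 -0.24, and IDI1, SQLE and SC5D -0.19 each. DESeq2 called 1 higher and 9 lower at 4 h (1120 and 1171 of all genes). With limma on log2(TPM + 1), 0 were called higher and 2 lower (421 and 479 of all genes). By edgeR no gene of the 32 was called at 2 h (0.126% of all genes called) or at 8, 16 or 24 h (0% called), and 8, 0, 1 and 1 of the 32 had an unadjusted p under 0.05 at those times, against 5.75%, 3.96%, 3.9% and 4.66% of all tested genes. DESeq2 called 1 gene of the 32 higher at 2 h, when 40 of all genes were higher and 38 lower. It called 0 of the 32 at 8, 16 and 24 h, when 1, 0 and 7 of all genes were higher and 1, 0 and 5 lower.

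The dimerizer effect differed between the lines for most of the genes. By the interaction test the effect was higher in Dmr-PERK than in Parental cells for 3 genes (SREBF1, SCAP and TM7SF2) and lower for 27, with 46.7% of all tested genes called. The largest differences were those of INSIG1 (-1.58), STARD4 (-1.33), FADS2 (-1.23) and HSD17B7 (-0.88). PMVK and CYP51A1 were not called.

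**Figure D2:**
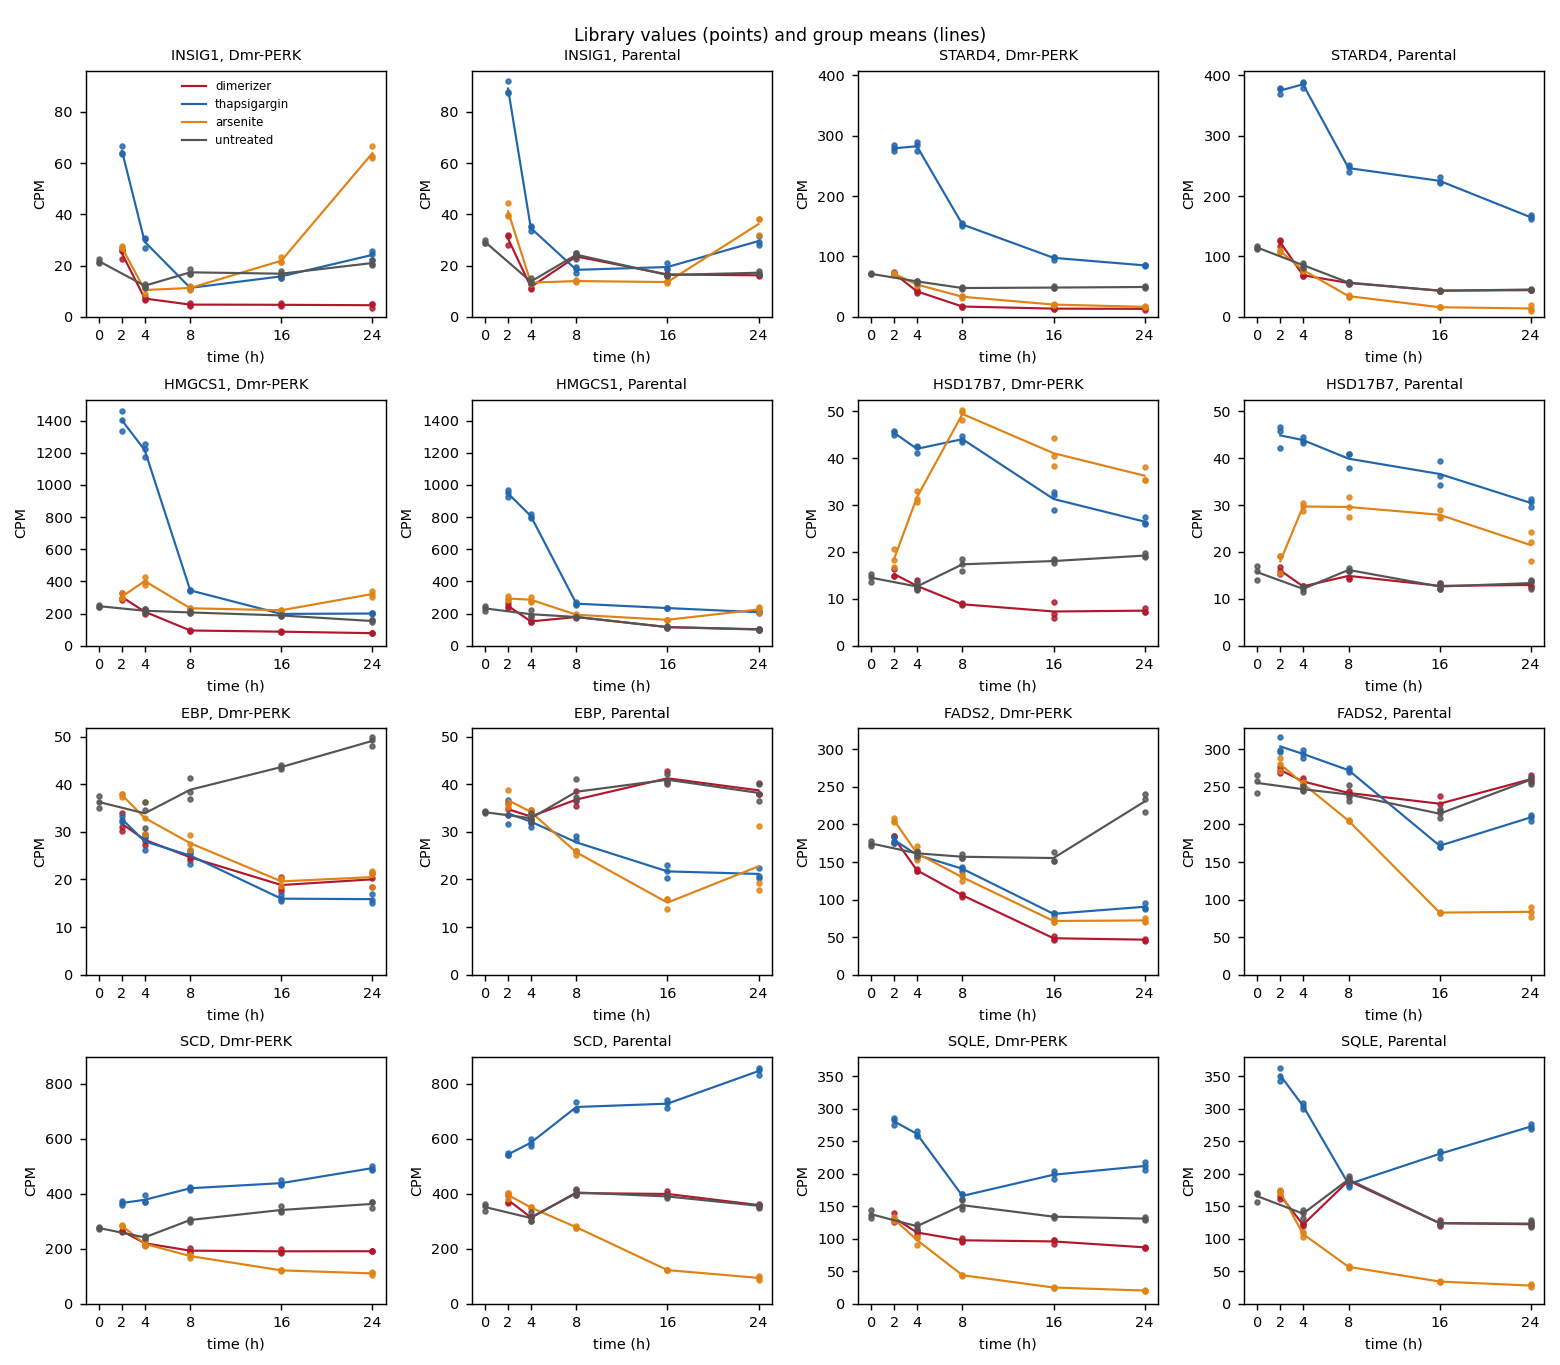
CPM of 8 of the genes by hours of treatment in each line, 1 point per well with a line through the group means, for dimerizer, thapsigargin, arsenite and untreated wells. At 24 h INSIG1, STARD4 and FADS2 are lowest in the dimerizer wells among the Dmr-PERK wells, and in Parental cells the dimerizer line runs close to the untreated line.

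Thapsigargin raised more of the 32 genes than it lowered, and sterol and fatty acid enzymes differed in direction in Dmr-PERK cells. Over 4 to 24 h 20 genes rose and 10 fell in Dmr-PERK cells (62.9% of all tested genes called, 30.8% higher), with a median of 0.17 for the 32 genes and -0.00 for all genes. Of the 18 sterol enzymes 13 rose and 4 fell (median 0.39), whereas of the 8 fatty acid enzymes 2 rose and 6 fell (median -0.24). In Parental cells 23 genes rose and 6 fell (64.5% called, 29.8% higher), with a median of 0.46. There 14 sterol enzymes rose and 2 fell (median 0.57), and 4 fatty acid enzymes rose and 4 fell (median 0.04). In Dmr-PERK cells the rise was early: 21 genes were higher at 2 h (17.6% of all tested genes higher), 22 at 4 h (19.4%), 17 at 8 h (25.4%), 14 at 16 h (25.2%) and 12 at 24 h (27.1%). In Parental cells 26, 26, 22, 19 and 21 genes were higher at those times, against 16.5%, 20.2%, 24.2%, 26.0% and 26.4% of all tested genes. At 24 h in Dmr-PERK cells, all thapsigargin wells lay above all untreated wells for 13 genes and below them for 13. The shares of all tested genes were 29.3% above and 29.6% below. In Parental cells at 24 h, 23 genes lay above and 7 below, against 29% and 30.6% of all tested genes.

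Of the regulators 4 of 5 rose with thapsigargin in Dmr-PERK cells. INSIG2, the other INSIG gene, had 28.9, 25.9 and 28.6 CPM with thapsigargin at 16 h, against 15.2, 18.6 and 14.7 CPM untreated, with no overlap (0.77 ± 0.07, adjusted p = 1.23e-16). SREBF2 had 356, 355 and 361 CPM with thapsigargin at 8 h, against 243, 241 and 245 CPM untreated (0.56 ± 0.03, adjusted p = 1.65e-29). SREBF2 wells were likewise apart. INSIG1 swung with time: it had 63.8, 66.8 and 63.6 CPM at 2 h, against 21.5, 22.5 and 21.0 CPM in untreated wells at 0 h, and 11.1, 11.8 and 11.0 CPM at 8 h, against 18.8, 16.7 and 16.6 CPM untreated. It was thus above all untreated wells of 0 h at 2 h (1.58 ± 0.06, adjusted p = 1.03e-40, and 2.41 against untreated wells at 4 h) and below all of them at 8 h (-0.62 ± 0.08, adjusted p = 9.18e-12). SCAP was not called (0.02, adjusted p = 0.342).

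Over 4 to 24 h STARD4 had the highest log2 fold change of the 32 genes with thapsigargin, 1.44 in Dmr-PERK and 2.13 in Parental cells. In Dmr-PERK cells it had 285, 289 and 274 CPM at 4 h, against 60.2, 59.7 and 56.3 CPM untreated (2.27 ± 0.05, adjusted p = 2.30e-59). In Parental cells at 16 h it had 222, 223 and 231 CPM with thapsigargin, against 43.5, 42.6 and 43.5 CPM untreated (2.38 ± 0.05, adjusted p = 8.94e-63). No wells overlapped in either line, and the rise shrank in Dmr-PERK cells (1.01 at 16 h and 0.78 at 24 h) while it was 1.86 in Parental cells at 24 h.

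In the mevalonate stage HMGCS1 and MVD rose most. HMGCS1 had 1462, 1406 and 1338 CPM with thapsigargin at 2 h in Dmr-PERK cells, against 253, 243 and 242 CPM in untreated wells at 0 h. That separation, 2.51 ± 0.05 on the log2 scale (adjusted p = 1.13e-62), was 2.48 at 4 h, 0.73 at 8 h, 0.07 (not called) at 16 h and 0.38 at 24 h. MVD had 57.3, 59.7 and 57.8 CPM with thapsigargin at 8 h, against 29.9, 31.9 and 30.7 CPM untreated, with no overlap (0.92 ± 0.06, adjusted p = 9.63e-27). ACAT2, which joins acetyl-CoA units at the start of the route, went the other way, with 27.5, 28.2 and 28.5 CPM at 16 h, against 48.7, 47.5 and 46.3 CPM untreated (-0.76 ± 0.06, adjusted p = 6.90e-21). Its thapsigargin wells lay below all untreated wells. PMVK also fell over 4 to 24 h (-0.16 ± 0.04, adjusted p = 0.00136), mainly at 4 h, with 16.2, 15.5 and 15.7 CPM against 22.1, 21.4 and 20.5 CPM untreated, and FDPS was not called (-0.02, adjusted p = 0.550).

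From squalene synthase on, 9 of 11 enzymes rose in Dmr-PERK cells. HSD17B7 had 42.5, 42.3 and 41.2 CPM with thapsigargin at 4 h, against 12.5, 13.6 and 11.8 CPM untreated, far from overlapping (1.74 ± 0.07, adjusted p = 1.63e-39). CYP51A1 was higher by 0.64 to 0.97 on the log2 scale at every time, and it was the 1 gene of the 32 whose thapsigargin effect was not called as changing between 4 and 24 h in Dmr-PERK cells (31 of 32 called, 52.0% of all genes). SQLE, the squalene epoxidase, rose by 0.63. EBP and LSS fell. EBP had 15.4, 15.8 and 16.7 CPM with thapsigargin at 16 h, against 43.6, 44.0 and 43.3 CPM untreated (-1.46 ± 0.08, adjusted p = 9.19e-31), and its log2 fold change was -1.62 at 24 h. LSS, the cyclase that makes lanosterol, had 46.6, 47.4 and 46.8 CPM at 16 h, against 83.1, 82.1 and 84.0 CPM untreated (-0.82 ± 0.04, adjusted p = 2.03e-34). In both genes all thapsigargin wells were below all untreated wells.

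Among the fatty acid enzymes FADS2 and ACSS2 fell most with thapsigargin in Dmr-PERK cells, and SCD and FADS1 rose. FADS2 had 95.1, 88.9 and 87.2 CPM at 24 h, against 217, 241 and 234 CPM untreated (-1.35 ± 0.04, adjusted p = 2.55e-53). ACSS2, which makes acetyl-CoA from acetate, had 11.1, 12.1 and 12.5 CPM at 16 h, against 23.7, 21.8 and 21.5 CPM untreated (-0.91 ± 0.08, adjusted p = 1.90e-19). Neither gene's wells overlapped. SCD had 491, 500.0 and 487 CPM with thapsigargin at 24 h, against 348, 369.6 and 369.7 CPM untreated (0.44 ± 0.03, adjusted p = 1.52e-21). FADS1, the delta-5 desaturase, had 174, 169 and 172 CPM at 8 h, against 141, 140.2 and 142 CPM untreated (0.28 ± 0.03, adjusted p = 3.87e-12), but was not called at 24 h (-0.05, adjusted p = 0.196). FASN was higher early, with 880.5, 885 and 866 CPM at 2 h, against 604, 616 and 633 CPM in untreated wells at 0 h, and lower from 8 h on (-0.28, -0.55 and -0.28 at 8, 16 and 24 h). ACACA had -0.07 on counts and 0.05 (not called) on log2 TPM in Dmr-PERK cells.

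The lines differed in the thapsigargin effect. It was higher in Dmr-PERK than in Parental cells for 2 genes (SREBF1 by 0.11 and TM7SF2 by 0.19) and lower for 27, with 25.6% of all tested genes called and 14.4% lower. STARD4 had a difference of -0.70 ± 0.04 (adjusted p = 5.23e-30), FADS2 of -0.57 ± 0.03 (adjusted p = 1.04e-34), SCD of -0.49, MSMO1 of -0.46 and MVD of -0.45. MVK, PMVK and FASN were not called. The untreated lines differed in some of the same genes, by -0.89 in MVD and -0.48 in FADS2. Untreated wells also drifted differently in the lines. The mean log2 CPM of the 18 sterol enzymes in untreated wells was 5.47 at 0 h and 5.56 at 24 h in Dmr-PERK cells. In untreated Parental wells it was 5.62 and 5.36. With thapsigargin at 24 h it was 5.58 in Dmr-PERK and 5.91 in Parental cells. The part of the untreated drift in the line differences was not tested.

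Arsenite lowered most of the 32 genes in both lines and raised a few strongly. In Dmr-PERK cells 27 fell and 5 rose over 4 to 24 h (83.4% of all tested genes called, 44.2% higher and 39.2% lower), with a median of -0.73 for the 32 genes and 0.11 for all genes. In Parental cells 26 fell and 3 rose (81.8% called, 42.4% higher and 39.4% lower), with a median of -0.72, against 0.09 for all genes. The median of all genes with arsenite depended on scaling: it was 0.22 with RLE size factors and -0.07 with no scaling factor in Dmr-PERK cells, and 0.21 and -0.09 in Parental cells. Genes called higher were 53.0% of all genes called in Dmr-PERK cells, 57.8% with RLE and 45.4% with no scaling factor. Of the 32 genes 2, 11, 25, 27 and 26 were lower at 2, 4, 8, 16 and 24 h in Dmr-PERK cells, against 9.41%, 24.7%, 31.0%, 36.3% and 38.2% of all tested genes. In Parental cells 1, 10, 26, 29 and 27 were lower, against 7.67%, 24.7%, 29.5%, 36.9% and 37.8%. At 24 h no gene of the 32 had overlapping wells in either line, and the share of all tested genes without overlap was 81.5% for Dmr-PERK and 74.2% for Parental cells.

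Of the regulators 4 fell with arsenite in Dmr-PERK cells and INSIG1 rose. SREBF1 had 22.1, 22.8 and 22.1 CPM with arsenite at 24 h, against 129, 134 and 129 CPM untreated, a wide gap (-2.55 ± 0.07, adjusted p = 1.22e-54). INSIG2 had 5.52, 6.09 and 6.16 CPM at 24 h, against 17.2, 15.9 and 17.4 CPM untreated (-1.50 ± 0.09, adjusted p = 2.16e-28). INSIG1 was lower at 4 and 8 h (-0.21 and -0.65) and higher at 16 and 24 h, with 62.7, 62.1 and 66.8 CPM at 24 h, against 22.2, 20.1 and 20.7 CPM untreated (1.61 ± 0.06, adjusted p = 3.49e-42). INSIG1 therefore stood above all untreated wells while INSIG2 stood below them at 24 h. In Parental cells INSIG1 was not called over 4 to 24 h (-0.01, adjusted p = 0.791) but had 1.07 at 24 h. STARD4 had 15.7, 17.2 and 16.7 CPM with arsenite at 24 h in Dmr-PERK cells, against 50.7, 48.6 and 49.1 CPM untreated, with no overlap (-1.58 ± 0.07, adjusted p = 3.53e-39).

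The mevalonate stage divided with arsenite. MVK, the mevalonate kinase, had 6.58, 5.85 and 5.73 CPM at 16 h in Dmr-PERK cells, against 24.4, 23.8 and 23.6 CPM untreated (-1.97 ± 0.10, adjusted p = 4.37e-35). In Parental cells MVK had 2.97, 2.97 and 2.99 CPM with arsenite at 16 h, against 21.1, 20.4 and 21.3 CPM untreated (-2.81 ± 0.11, adjusted p = 2.58e-41). PMVK, the kinase that acts next, had 55.7, 53.6 and 58.2 CPM at 24 h in Dmr-PERK cells, against 18.4, 19.2 and 19.2 CPM untreated (1.56 ± 0.08, adjusted p = 1.26e-33). The wells of these kinases lay on opposite sides of their untreated wells, with no overlap. HMGCS1 had 322, 303 and 340.4 CPM with arsenite at 24 h, against 157, 147 and 157 CPM untreated (1.07 ± 0.05, adjusted p = 1.42e-34). In the other 4 enzymes of the stage (ACAT2, MVD, IDI1 and FDPS) values over 4 to 24 h ran from -0.75 (ACAT2) to -0.14 (IDI1), and IDI1 itself was lower at 8 and 16 h (-0.84 and -0.54) and higher at 24 h (0.75).

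From squalene synthase on, 9 of 11 enzymes fell with arsenite in Dmr-PERK cells. SQLE, a rate-limiting enzyme of the later steps, had 19.6, 20.8 and 19.5 CPM at 24 h, against 129, 130.1 and 133 CPM untreated (-2.72 ± 0.05, adjusted p = 3.57e-70). NSDHL, a sterol dehydrogenase, had 10.8, 9.68 and 8.99 CPM at 16 h, against 38.6, 40.7 and 38.2 CPM untreated (-1.98 ± 0.06, adjusted p = 6.53e-50). Both were far below the untreated wells. Over 4 to 24 h SQLE had -1.81, NSDHL -1.50 and MSMO1 -1.46. HSD17B7 rose, with 49.8, 48.2 and 50.3 CPM at 8 h, against 17.5, 18.6 and 16.0 CPM untreated, and no overlap (1.51 ± 0.07, adjusted p = 4.27e-37). CYP51A1 was called higher over 4 to 24 h (0.05 ± 0.02, adjusted p = 0.00569). It was called lower, however, with no scaling factor (-0.14) and on log2 TPM (-0.05). At 24 h it had 72.0, 72.9 and 73.1 CPM, against 73.6, 73.7 and 74.3 CPM untreated.

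All 8 fatty acid enzymes fell with arsenite over 4 to 24 h in each line, by counts from 0.60 (ACLY) to 1.53 (ELOVL6) on the log2 scale in Dmr-PERK cells. ELOVL6 had 16.0, 14.7 and 14.5 CPM at 8 h in Dmr-PERK cells, against 57.4, 55.6 and 57.2 CPM untreated (-1.89 ± 0.05, adjusted p = 6.16e-53). In Parental cells, where its untreated level was lower, it had 21.3, 20.6 and 22.1 CPM with arsenite at 8 h, against 29.4, 28.6 and 27.8 CPM untreated (-0.42 ± 0.06, adjusted p = 4.37e-10). The wells were apart in both lines. FASN had 202, 201 and 196 CPM at 8 h in Dmr-PERK cells, against 706, 714 and 730.0 CPM untreated (-1.84 ± 0.04, adjusted p = 8.17e-60), and fell by 1.65 over 4 to 24 h in Parental cells.

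The arsenite effect was higher in Dmr-PERK than in Parental cells for 17 genes and lower for 4, with 42.3% of all tested genes called. ELOVL6 had the largest difference (-0.90 ± 0.04, adjusted p = 7.59e-36), and SQLE (-0.27), NSDHL (-0.25) and FDFT1 (-0.11) were the others lower. MVK (0.45), FASN (0.34), LSS (0.31), SCAP (0.31) and SREBF1 (0.30) were the highest. Without replicate 1 of every group the counts were 11 higher and 7 lower, and without replicate 3 there were 2 lower. The library that stood apart, replicate 3 of Parental cells with arsenite at 24 h, had 19.8 CPM of STARD4 against 9.51 and 12.2 CPM in the other wells of its group, and 106 CPM of PMVK against 70.3 and 67.6 CPM. Without it INSIG2 (0.18) and FADS1 (-0.06) passed the threshold for this difference between lines (0.11 and -0.05 with it, not called), and the value of INSIG1 with arsenite in Parental cells became 0.00. The line difference of FDFT1 was -0.07 without it, that of STARD4 was 0.22, against 0.13 with it, and that of FDPS 0.17, against 0.11. MVK (0.60) and SREBF1 (0.40) moved by less than 1.5 times.

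The treatments were also compared with each other over 2 to 24 h (15 wells each), since their comparisons with untreated wells share those untreated wells. In Dmr-PERK cells dimerizer stood above thapsigargin for 6 of the 32 genes and below it for 26 (46.8% of all tested genes called, 20.7% lower), with a median of -0.58 for the 32 genes and -0.00 for all genes. STARD4 had the lowest value (-2.68 ± 0.03, adjusted p = 3.31e-92), followed by HSD17B7 (-1.91), HMGCS1 (-1.83), INSIG1 (-1.76) and MSMO1 (-1.44). The genes higher with dimerizer were ACSS2 (0.20), PMVK (0.15), ACLY (0.13), EBP (0.11), ELOVL6 (0.11) and SCAP (0.06, but -0.03 on log2 TPM). On log2 TPM 2 genes were called higher.

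Dimerizer against arsenite went both ways in Dmr-PERK cells, with 18 genes higher and 11 lower (80.3% of all genes called, 37.8% higher and 42.5% lower). The median of all genes there was -0.12, and it was -0.22 with RLE size factors and 0.03 with no scaling factor. HSD17B7 (-1.77), INSIG1 (-1.59), HMGCS1 (-1.12) and PMVK (-0.83) were lower with dimerizer, and SQLE (1.08), ELOVL6 (1.04), SREBF1 (0.95) and MVK (0.93) were higher. ACAT2 (-0.02), MVD (0.03) and DHCR7 (-0.04) were not called. Thapsigargin against arsenite had 30 genes higher and 2 lower in Dmr-PERK cells (80.5% called, 37.2% higher) and 30 higher and 1 lower in Parental cells (79.1% called, 36.9% higher). The median of all genes was -0.14 in each line, -0.24 in each with RLE, and 0.02 in Dmr-PERK and -0.01 in Parental cells with no scaling factor. PMVK was lower with thapsigargin in both lines (-0.98 in Dmr-PERK and -0.95 in Parental cells). EBP was lower in Dmr-PERK cells (-0.26) and not called in Parental cells (0.07), where it passed the threshold as higher (0.13) without the library that stood apart.

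The contrast of sterol with fatty acid enzymes was summarised per library as the mean log2 CPM of the 18 sterol enzymes, that of the 8 fatty acid enzymes, and their difference (sterol minus fatty acid), which carries no p because the genes were chosen together. The pooled SD of the difference between wells of a group was 0.040. In Dmr-PERK cells dimerizer lowered both means over 4 to 24 h, the sterol mean by 0.50 and the fatty acid mean by 0.44, so that the difference changed by -0.06. At 2, 4, 8, 16 and 24 h the difference changed by 0.04, 0.03, -0.10, -0.08 and -0.11, and its wells overlapped those of untreated cells at 4 and 16 h. With dimerizer in Parental cells the means changed by -0.02 and 0.02.

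The sterol mean lay below the fatty acid mean in every group, and thapsigargin brought the means closer together in both lines. In Dmr-PERK cells the sterol mean changed by 0.28 and the fatty acid mean by -0.18 over 4 to 24 h, a change of 0.46 in the difference. The sterol mean was highest early (0.69, 0.72, 0.32, 0.04 and 0.02 at 2, 4, 8, 16 and 24 h), and the fatty acid mean changed by 0.07, 0.10, -0.13, -0.39 and -0.32 at the same times. At every time all 3 thapsigargin wells had a higher difference than all untreated wells. In Parental cells the sterol mean changed by 0.56, the fatty acid mean by 0.12 and the difference by 0.44.

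Over 4 to 24 h arsenite lowered both means, the fatty acid mean further. In Dmr-PERK cells the sterol mean changed by -0.48 and the fatty acid mean by -0.91, and the difference by 0.42. The sterol mean was first higher and then lower, by 0.09, 0.14, -0.46, -0.80 and -0.81 at 2, 4, 8, 16 and 24 h in Dmr-PERK cells and by 0.15, 0.11, -0.60, -0.90 and -0.76 in Parental cells, and in both lines all arsenite wells were above all untreated wells at 2 and 4 h. The difference was above that of untreated wells at each time, by 0.10, 0.35, 0.35, 0.39 and 0.60 at 2, 4, 8, 16 and 24 h. In Parental cells it changed by 0.10, 0.21, -0.07, 0.37 and 0.79, with overlapping wells at 8 h, and the Parental wells with arsenite at 24 h spread most (-1.14 to -0.83), with a change of 0.69 without the library that stood apart. With the median over enzymes in place of the mean, the arsenite change was 0.20 in Dmr-PERK and 0.18 in Parental cells.

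**Figure D3:**
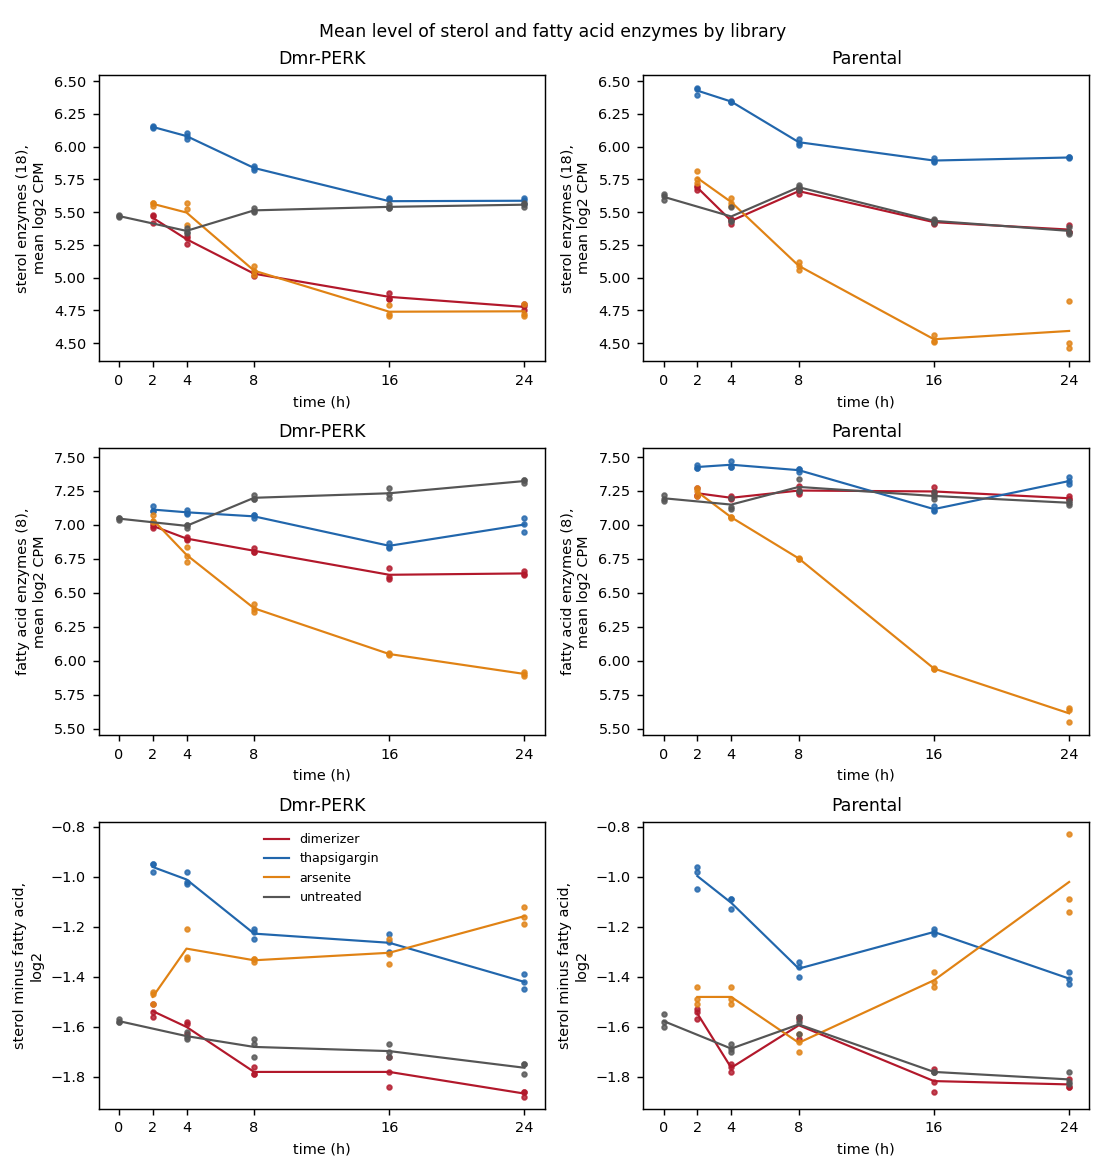
Mean log2 CPM of the 18 sterol enzymes, of the 8 fatty acid enzymes, and their difference, by hours in each line, 1 point per well and lines through group means. In Dmr-PERK cells the difference with thapsigargin lies above the untreated wells at every time, and the difference with dimerizer stays within 0.11 of them.

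**Figure D4:**
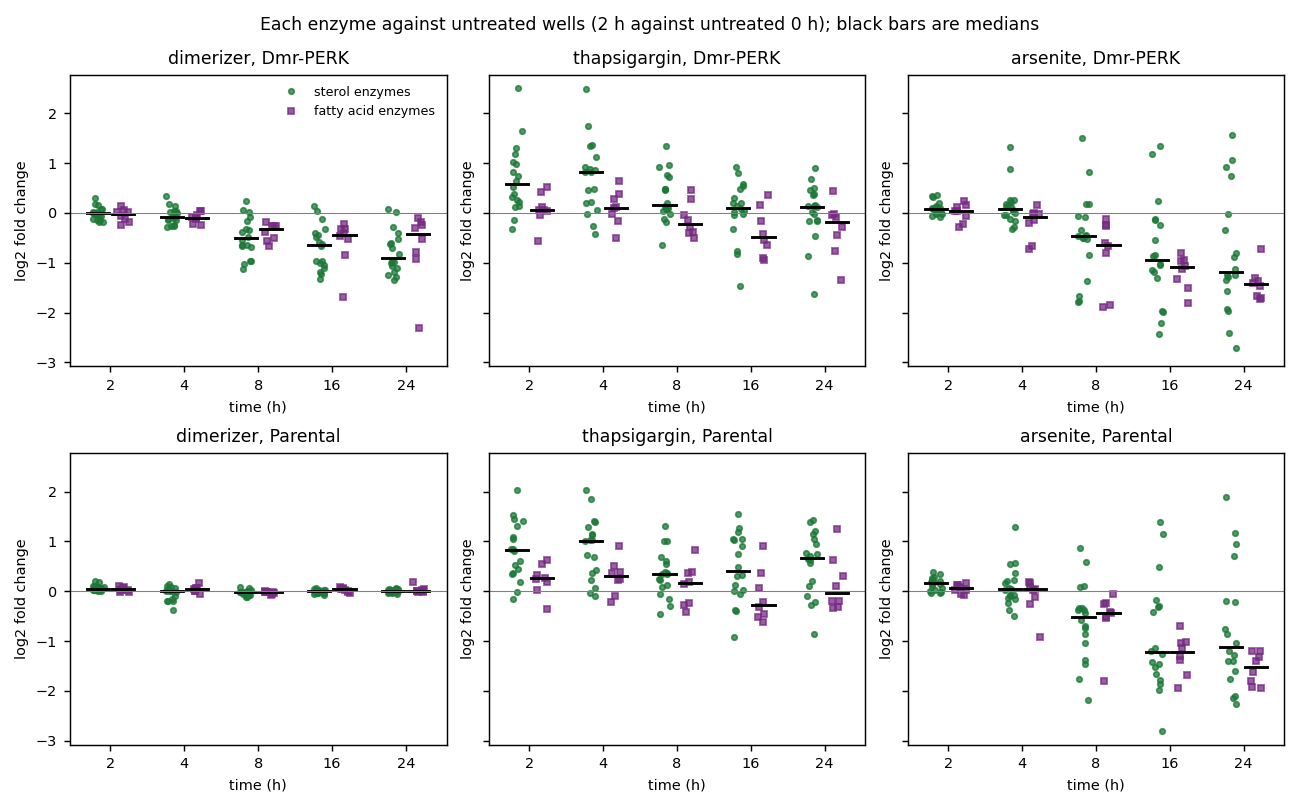
Log2 fold change of each sterol enzyme and each fatty acid enzyme against untreated wells (2 h against untreated 0 h) by hours in Dmr-PERK and Parental cells, 1 point per gene (circles for sterol enzymes, squares for fatty acid enzymes), with black bars at the medians. With thapsigargin in Dmr-PERK cells HMGCS1 starts at 2.51 and EBP ends at -1.62, and with arsenite SQLE ends at -2.72 while PMVK ends at 1.56.

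Genes around the pathway were taken from lists that do not overlap the 32. Across all tested genes in Dmr-PERK cells, 27.4% were higher and 27.9% lower with dimerizer, 30.8% and 32.2% with thapsigargin, and 44.2% and 39.2% with arsenite, and the counts of these lists stand beside those shares. Of 8 genes of SREBP processing and sterol-regulated degradation, 5 rose and 2 fell with dimerizer in Dmr-PERK cells, 5 rose and 2 fell with thapsigargin, and 0 rose and 7 fell with arsenite (median -0.88). The ubiquitin ligase RNF145 had -0.67 with dimerizer, -0.47 with thapsigargin and -1.98 with arsenite. Of 12 genes of sterol uptake, storage and efflux, 5 rose and 5 fell with dimerizer, 6 and 6 with thapsigargin, and 5 and 5 with arsenite. NPC1, which exports cholesterol from lysosomes, had 1.93 with arsenite, and NPC2, its soluble partner, had -0.66 with dimerizer and -1.27 with thapsigargin. The oxysterol-binding protein gene OSBP had 1.16 with thapsigargin.

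Of 19 other fatty acid and glycerolipid genes, 9 rose and 10 fell with dimerizer, 10 rose and 8 fell with thapsigargin, and 8 rose and 11 fell with arsenite in Dmr-PERK cells. MID1IP1, which promotes the polymerisation of acetyl-CoA carboxylase, had 1.09 with dimerizer and 1.10 with thapsigargin, against -0.22 and -0.07 for ACACA itself. HACD3, a dehydratase of fatty acid elongation, had -0.49 with dimerizer and -0.69 with thapsigargin. ACSL4, an acyl-CoA synthetase for polyunsaturated fatty acids, had 1.53 with arsenite and ELOVL5, a polyunsaturated elongase, had 1.09, whereas GPAM, which starts glycerolipid synthesis, had -1.53. Of 8 genes of fatty acid oxidation, 3 rose and 2 fell with dimerizer, 4 rose and 1 fell with thapsigargin, and 1 rose and 6 fell with arsenite, with CPT2 at -1.58 and ACADM at -0.85. Of 8 genes on isoprenoid branches off the mevalonate stage, 6 rose and 1 fell with dimerizer, 6 rose and 2 fell with thapsigargin, and 2 rose and 6 fell with arsenite. NUS1, a subunit of the dolichol-making transferase, had 1.11 with thapsigargin, and PGGT1B, a subunit of a geranylgeranyl transferase, had 0.53 with dimerizer and 0.82 with thapsigargin.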

How the data were processed

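RNA from 120 wells of U2OS cells was sequenced from directional libraries per the labels' protocols. Strand use in counting was not given in the sources used here. Genes that overlap on opposite strands are not separated with certainty. Among them are ACAT2 with TCP1 and SOD2, FADS2 with FADS1, SREBF1 with RAI1, STARD4 with STARD4-AS1, ACSS2 with GGT7 and SREBF2 with SREBF2-AS1. TM7SF2 overlaps VPS51 and FADS2 overlaps FEN1 on the same strand, where strand cannot separate them. Processing used FastQC 0.11.5, Salmon 0.9.1 and GRCh38, per the submitters' processing notes. The authors deposited estimated counts per gene, of which 49.5% are whole within 1e-05, and TPM, scaled per library. All columns matched 1 sample each (0 unmapped), and 0 pairs of libraries were identical.

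Estimated counts were rounded to whole numbers for edgeR 4.0.16 (R 4.3.3). Its expression filter (minimum count 10, by group) left 26998 genes, libraries were scaled by TMM (factors 0.839 to 1.169), and 1 quasi-likelihood fit held all 40 groups (80 residual degrees of freedom, prior 12.7). Benjamini-Hochberg adjustment ran over all tested genes of a comparison, and a gene was called when its adjusted p was under 0.05. Approximate standard errors of log2 fold changes follow the ± sign. Treatment effects are means over 4, 8, 16 and 24 h, direct comparisons of treatments over 2 to 24 h, and line differences are interaction terms. The enzyme means use log2 CPM with a prior count of 2. The tests were checked on simulated data.

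The genes and lists were chosen with earlier results of these data known. Per-well values are given, in each role, for the 2 genes with the largest absolute log2 fold changes under each treatment of Dmr-PERK cells and for those called against most of their role, at times chosen after seeing the values. From other lists, up to 3 genes with the smallest adjusted p are named, apart from a gene that is not reported here. Alternatives were RLE or no scaling factors, DESeq2 1.42.0, no filter, limma 3.58.1 on log2(TPM + 1) and log2(TPM + 0.1), leaving out each replicate, a replicate block, each line alone, untreated 4 h for the 2 h wells, and, added after seeing the data, leaving out the library that stood apart. Promoter windows come from RefSeq.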

Additional observations from a re-analysis of the deposited data

Results flagged for a closer look

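The dimerizer effect differed between the lines, by an interaction test in edgeR, for 3 genes higher and 27 genes lower in Dmr-PERK cells (46.7% of all tested genes called). The thapsigargin effect was higher in Dmr-PERK cells for 2 genes and lower for 27 (25.6% of all called). ACACA and ELOVL6 had effects of opposite sign in the lines with thapsigargin: ACACA had -0.07 in Dmr-PERK cells (0.05 and not called on log2 TPM), against 0.13 in Parental cells (difference -0.20 ± 0.02, adjusted p = 1.75e-10), and ELOVL6 had -0.30 (-0.02 and not called on log2 TPM), against 0.13 (difference -0.43 ± 0.04, adjusted p = 2.18e-18). Untreated wells of these genes also drifted by line. At 16 h against 0 h, untreated ACACA had 0.43 in Dmr-PERK and 0.21 in Parental cells. Untreated ELOVL6 had 0.74 in Dmr-PERK and 0.46 in Parental cells. The part of this drift in the opposite signs was not tested. The arsenite effect was higher in Dmr-PERK cells for 17 genes and lower for 4 (42.3% of all called).

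Effects also differed between times from 4 to 24 h by an F-test in edgeR. In Dmr-PERK cells 29 of the 32 genes changed with time under dimerizer (42.1% of all tested genes), 31 under thapsigargin (52.0%) and 32 under arsenite (70.7%). For Parental cells the numbers were 2 under dimerizer (HMGCS1 and STARD4, 3.43% of all), 31 under thapsigargin (48.8%) and 32 under arsenite (71.9%).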

How the results depend on the processing

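Among the gene values recomputed under these alternatives, those not named here kept their sign. In the arsenite line difference, PMVK and EBP were 0.04 and 0.02 without the library that stood apart, against -0.02 and -0.05 with it, and were not called in either case. With RLE size factors and with DESeq2, 6 genes were called higher with arsenite in Parental cells instead of 3, because INSIG1 (0.10), CYP51A1 (0.10) and SC5D (0.07) turned positive. With each replicate left out in turn, INSIG1 ranged over -0.04 to 0.04, CYP51A1 over -0.04 to 0.04 and SC5D over -0.07 to 0.00. INSIG1 and CYP51A1 were 0.01 each with the line fitted alone, and INSIG1 was 0.00 without the library that stood apart. With no scaling factor CYP51A1 was called lower with arsenite in Dmr-PERK cells (-0.14, adjusted p = 1.10e-12 by edgeR). Under that setting 5 genes were higher at 24 h than at 0 h in untreated Parental cells instead of 3. Genes called lower with dimerizer in Parental cells numbered 1 with DESeq2 (81 of all genes), 1 with no filter (177) and 2 without the library that stood apart (113), against 0 (64). Without that library 4 genes changed with time under dimerizer in Parental cells, against 2.

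On log2 TPM, with a pseudocount of 1 or 0.1, 0 genes were called higher with dimerizer in Dmr-PERK cells, 0 were higher and 1 was higher in the line differences of dimerizer and of thapsigargin, 2 were higher with dimerizer than with thapsigargin, 1 was lower with thapsigargin than with arsenite in Dmr-PERK cells, 3 were lower at 24 h than at 0 h in untreated Dmr-PERK cells, and 0 changed with time under dimerizer in Parental cells. Values that changed sign there were ELOVL6 with dimerizer in Dmr-PERK cells (0.13) and in its line difference (0.23 and 0.24), FDPS (0.02) and ACACA (0.05) with thapsigargin and CYP51A1 with arsenite (-0.05) in Dmr-PERK cells, SREBF1 (-0.12 and -0.13), ACAT2 (0.09) and LSS (0.00) with thapsigargin in Parental cells, and SCAP between dimerizer and thapsigargin (-0.03). Of these, SREBF1 (adjusted p = 0.00251 and 0.00330, limma) and CYP51A1 (0.0428 and 0.0424) were called lower on log2 TPM, and the others were not called. The cause was not tested.

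With each replicate left out in turn, genes called higher with dimerizer in Dmr-PERK cells numbered 1 to 3, and lower with dimerizer in Parental cells 0 to 2. In the line differences they were 0 to 3 higher for dimerizer, 0 to 2 higher for thapsigargin, and 11 to 15 higher and 2 to 7 lower for arsenite. Genes higher at 24 h in untreated Parental cells were 1 to 4, and those changing with time under dimerizer there 0 to 3. PMVK with dimerizer in Dmr-PERK cells ranged over -0.08 to 0.01, and LSS with thapsigargin in Parental cells over -0.03 to 0.02. Against untreated wells at 4 h, the 2 h wells had 18 genes higher and 5 lower with dimerizer (33.3% of all genes called) and 18 higher and 4 lower with arsenite (34.3%) in Dmr-PERK cells. In Parental cells they had 16 higher and 2 lower with dimerizer (22.1%), 25 higher and 3 lower with thapsigargin (38.4%) and 18 higher and 3 lower with arsenite (33.8%).

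The change in sterol minus fatty acid means was -0.12 on log2(TPM + 1) and -0.14 with the median over enzymes for dimerizer in Dmr-PERK cells, 0.41 on log2(TPM + 1) for thapsigargin in Dmr-PERK cells, 0.36 and 0.20 for arsenite in Dmr-PERK cells, 0.25 and 0.18 for arsenite in Parental cells, and 0.01 on log2(TPM + 1) for dimerizer in Parental cells.

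No pairing of wells by replicate number was seen, though the labels do not state whether wells were paired. In each line 0 of 190 pairs of groups had every correlation of deviations above 0.1. Mean correlations per pair of groups lay between -0.06 and 0.06 in Dmr-PERK and between -0.04 and 0.05 in Parental cells. With the replicate block, 28 genes fell and 3 rose with dimerizer in Dmr-PERK cells, and no count moved by over 1.5 times. The 2 h comparisons lack untreated wells of their own time, and the number of wells, 3 per group, limits the precision of low genes such as TM7SF2.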
